A study of Homo sapiens with 4 samples.

Results

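The 33 genes described here encode the machinery that starts and builds the autophagosome, the double membrane that encloses cytoplasm for delivery to the lysosome. They were chosen by name, and older names in the array's gene column counted as the same gene (KIAA0652 for ATG13, KIAA0831 for ATG14, C12orf44 for ATG101, TMEM49 for VMP1, KIAA1632 for EPG5). All 33 were on the array, with 51 of its 47229 probes and 33 of its 30561 named genes. Measured here means detected above background at p under 0.01 on at least 1 array of a line, which left 29 of the 33 in ES2, 28 in H4 and 27 in both. ULK2, ATG13 and ATG2B were detected on no array, ULK3 on no ES2 array, and AMBRA1 and ATG5 on no H4 array. A gene with several probes is represented by its brightest.

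Expression was measured on Illumina HumanHT-12 V4 BeadChips in 2 established human lines, ES2 and H4, with a single array for each of the 4 combinations of line and treatment. Each line was given DMSO, the vehicle, or 20 µM GANT61, a small molecule that blocks the GLI transcription factors of the Hedgehog pathway, and all 4 arrays were made at 48 h. The series asks whether Hedgehog inhibition slows cancer cell growth through autophagy. The labels give both lines the same source, an adenocarcinoma of the ovary with epithelial morphology, although H4 is commonly described as a neuroglioma line. Of 12 epithelial and Müllerian markers, KRT7, KRT8 and KRT18 were detected on both ES2 arrays and KRT18 and MUC1 on both H4 arrays, while EPCAM, CDH1 and PAX8 were detected on none. Of 10 glial and neural markers, OLIG2, SLC1A3, NCAM1 and TUBB3 were detected on both H4 arrays and SLC1A3, TUBB3 and MBP on both ES2 arrays, while GFAP was detected on none. Nothing in the labels says how many cultures an array stands for, and in a culture, fewer cells of a type and less RNA per cell cannot be told apart.

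Autophagosome formation begins with the ULK kinase complex, which receives signals from nutrient and energy kinases and activates the class III PI3-kinase complex. The PI3P lipid made there recruits WIPI proteins, ATG2 channels lipid into the growing membrane, and ATG9 vesicles and VMP1 help to supply it. A pair of ubiquitin-like reactions then follows, in which ATG7 and ATG10 join ATG12 to ATG5, the ATG12-ATG5 pair acts with ATG16L1, and ATG7 and ATG3 attach LC3 to lipid after ATG4 proteases have trimmed it.

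Promoter sequences are shown for 3 of the genes, chosen after their values were seen: WIPI1 and ATG12, which were among the highest ratios in H4, and ATG3, which was lower there and held the most E-boxes. They come from RefSeq (GRCh38.p14) and run from 250 bases before to 50 bases after the start of the gene, at chr17:68457447-68457746 on the minus strand for WIPI1, chr5:115841516-115841815 on the minus strand for ATG12 and chr3:112561913-112562212 on the minus strand for ATG3. Capitals mark matches on either strand to 4 motifs. One is CACGTG, the E-box bound by TFEB and other basic helix-loop-helix factors. Another is ACGTG, a core of the hypoxia response element that every E-box also contains. The others are the CCAAT box and the GC box, which reads GGGCGG.
WIPI1: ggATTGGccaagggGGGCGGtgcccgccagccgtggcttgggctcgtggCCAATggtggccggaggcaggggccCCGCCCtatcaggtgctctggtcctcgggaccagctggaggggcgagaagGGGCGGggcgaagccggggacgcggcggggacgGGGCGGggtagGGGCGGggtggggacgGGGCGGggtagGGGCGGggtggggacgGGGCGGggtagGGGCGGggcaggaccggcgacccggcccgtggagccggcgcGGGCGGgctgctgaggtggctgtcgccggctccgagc
ATG12: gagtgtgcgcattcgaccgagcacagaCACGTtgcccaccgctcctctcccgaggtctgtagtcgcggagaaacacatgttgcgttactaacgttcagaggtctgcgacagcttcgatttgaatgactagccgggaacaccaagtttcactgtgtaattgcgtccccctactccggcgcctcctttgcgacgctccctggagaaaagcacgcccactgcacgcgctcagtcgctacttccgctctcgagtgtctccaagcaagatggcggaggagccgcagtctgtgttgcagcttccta
ATG3: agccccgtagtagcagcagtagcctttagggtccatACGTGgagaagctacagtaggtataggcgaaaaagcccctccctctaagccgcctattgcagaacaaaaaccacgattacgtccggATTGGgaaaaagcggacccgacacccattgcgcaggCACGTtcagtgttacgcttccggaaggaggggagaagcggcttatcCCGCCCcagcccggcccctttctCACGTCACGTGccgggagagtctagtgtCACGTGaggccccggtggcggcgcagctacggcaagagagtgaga
The WIPI1 window held 10 GC boxes, 2 CCAAT boxes and no E-box. The ATG12 window held 1 ACGTG and none of the other motifs. The ATG3 window held 2 E-boxes, at -18 and 5 relative to the start site, 3 further ACGTG, 1 CCAAT box and 1 GC box. Of the 33 genes, 28 had an entry. An E-box stood in 3 of the 28 (ULK3, ATG14 and ATG3, 10.7%) against 8.77% of all 27305 genes with an entry, ACGTG in 11 (39.3% against 24.9%), CCAAT in 12 (42.9% against 39.7%) and GGGCGG in 18 (64.3% against 48.3%). The GLI motif GACCACCCA and the ATF4 motif TGATGNAAT, searched on both strands, stood in 0 of the 28, against 0.297% and 1.22% of all genes. These matches describe the letters of the windows and show no binding.

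In H4, GANT61 went with an increase of 1.5-fold or more for 6 of the 28 measured genes (21.4%), against 11.3% of all 11545 genes measured there, and 0 were at least 1.5-fold lower, against 12.6%. The 6 were WIPI1, WIPI2, ATG12, DRAM1, ATG4A and ATG2A. WIPI1 alone passed 2-fold, which 4.06% of all genes did in the higher and 3.53% in the lower direction. The other genes went both ways. Of the 28, 16 had a log2 ratio above 0, 57.1% against 45.4% of all genes, and the median log2 ratio was 0.09 against -0.05. In ES2 none of the 29 measured genes reached 1.5-fold in either direction, where 0.36% of all 12214 genes did so upward and 0.319% downward, and 2-fold was passed by 0.0327% of all genes in each direction and by none of the 29. Of the 29, 17 were above 0, 58.6% against 50.6%. The ES2 median log2 ratio was 0.06 against 0.00 for all genes. All ratios are log2 differences of background-corrected, quantile-normalized intensity, and with 1 array per line and treatment no ratio within a line has a replicate or a test.

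**Figure D1:**
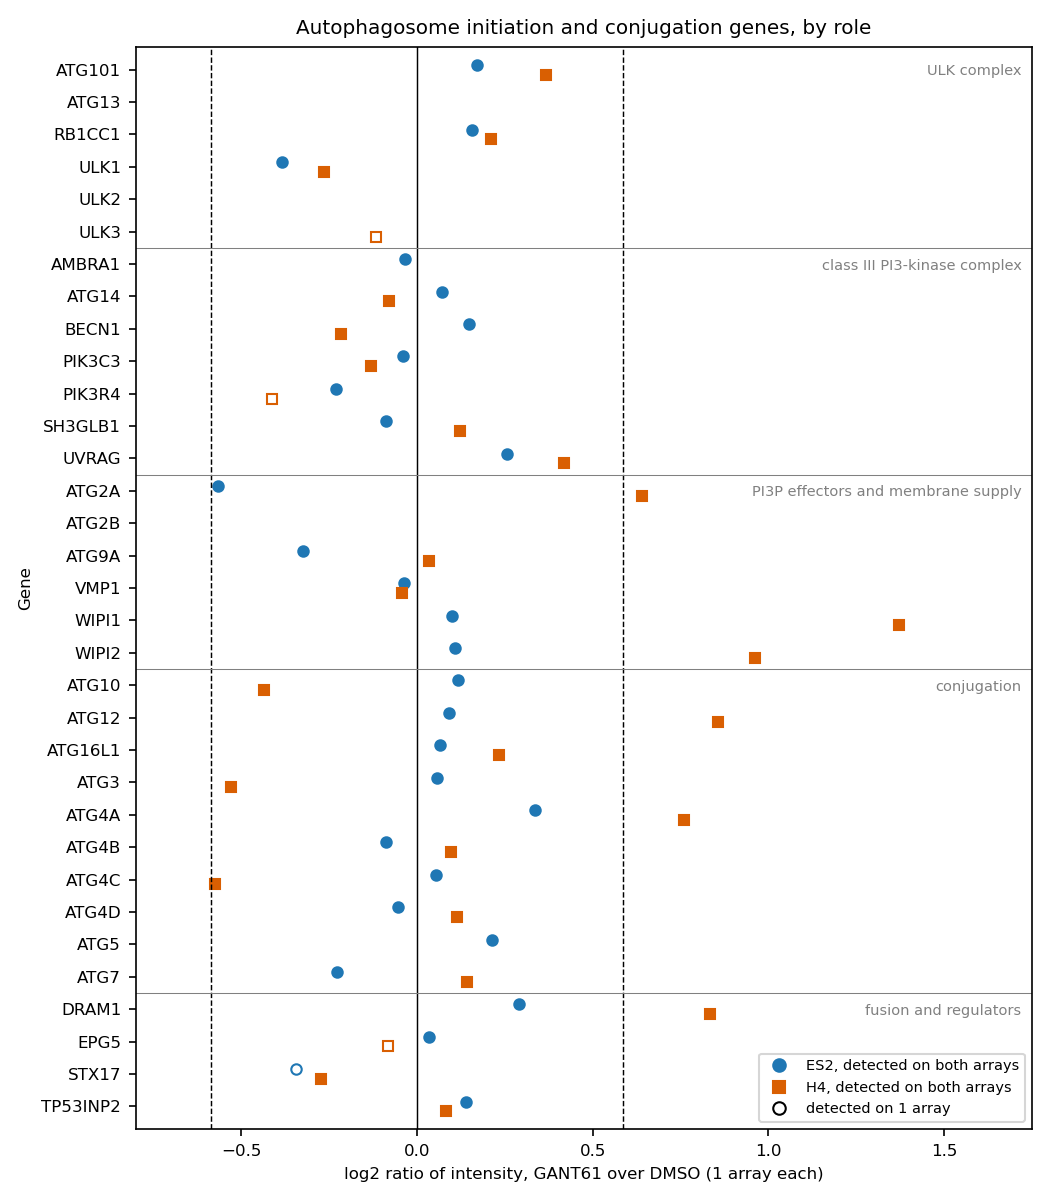
Log2 ratio of intensity, GANT61 over DMSO (x axis), for each of the 33 genes grouped by role (y axis), with circles for ES2 and squares for H4. Open symbols mark genes detected on 1 array of the line, a missing symbol marks no detection, and dashed lines mark 1.5-fold. The 6 H4 squares to the right of the dashed line run from ATG2A at 0.64 to WIPI1 at 1.37, and every ES2 circle lies between the dashed lines.

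Probes of the same gene served as a yardstick for single ratios. Between the 2 brightest detected probes of a gene, the log2 ratio differed with an SD of 0.20 in ES2 (2545 genes) and 0.31 in H4 (1993 genes). This measures disagreement between probes on the same arrays, and the spread between cultures is not in it. In H4, 8 of the 28 genes were higher and 4 lower by more than that SD, together 42.9% against 51.6% of all genes. In ES2, 4 of 29 were higher and 6 lower, together 34.5% against 29.1%.

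No measured gene of the ULK complex reached 1.5-fold in either line. ULK1, the kinase that starts autophagy, had log2 intensities of 8.50 with DMSO and 8.12 with GANT61 in ES2, and of 10.24 and 9.97 in H4. ES2 thus had 1.31-fold less ULK1 signal after GANT61 and H4 1.20-fold less, and the lower array was the GANT61 array in both lines. The ES2 difference lay beyond the spread between probes and the H4 difference within it. A further ULK1 probe detected on all 4 arrays gave log2 ratios of -0.39 in ES2 and -0.24 in H4. ATG101, which stabilises ATG13 in the complex, had log2 intensities of 8.77 and 8.94 in ES2 and 8.74 and 9.10 in H4, with DMSO and GANT61 in that order as in all later pairs. Its log2 ratios were 0.17 and 0.37, the second of them beyond the spread between probes. RB1CC1, the scaffold also called FIP200, had ratios of 0.16 in ES2 and 0.21 in H4, both within it. ULK3, a kinase related to ULK1 that is also known to act on GLI proteins, was detected on 1 H4 array, where it left no fold to give.

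The class III PI3-kinase complex had no member past 1.5-fold in either line. BECN1, its regulatory core, had log2 intensities of 9.18 and 9.32 in ES2 and 9.23 and 9.01 in H4. Its log2 ratios of 0.15 and -0.22 lay on opposite sides of 0 and within the spread between probes of each line. UVRAG, a BECN1 partner that takes part in later endosomal steps, had log2 intensities of 6.96 and 7.21 in ES2 and 6.81 and 7.23 in H4, and was 1.19-fold and 1.34-fold higher, beyond the spread between probes in both lines. PIK3R4, which anchors the kinase, had log2 ratios of -0.23 in ES2 and -0.41 in H4. It was detected on 1 H4 array, and with the dimmer array held at the lowest detected signal the H4 bound was 1.00-fold, so the H4 difference rests on signal near background. The catalytic subunit PIK3C3 had ratios of -0.04 and -0.13, ATG14, which directs the complex to autophagy, 0.07 and -0.08, and the curvature protein SH3GLB1 -0.09 and 0.12 in ES2 and H4. AMBRA1, which binds BECN1, had a ratio of -0.03 in ES2.

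The PI3P effectors and lipid transfer genes held 3 of the 6 genes past 1.5-fold in H4. WIPI1, which binds PI3P on the forming membrane, had log2 intensities of 8.45 and 8.55 in ES2 and 8.21 and 9.58 in H4. Its level was alike on 3 arrays and 2.59-fold higher on the H4 GANT61 array than on the H4 DMSO array, against 1.07-fold in ES2. WIPI1 has 1 probe, so no other probe could be set beside it. On the authors' scale, which has no background correction, the H4 ratio was 1.18 on the log2 scale, the lowest of 9 settings.

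WIPI2, which recruits ATG16L1 to the membrane, had log2 intensities of 6.13 and 6.24 in ES2 and 8.24 and 9.20 in H4. Both H4 arrays lay above both ES2 arrays, and the H4 GANT61 array was 1.95-fold above its DMSO array, against 1.08-fold in ES2. The ES2 values lay close to the lowest signals among genes detected on both ES2 arrays, 6.10 with DMSO and 6.07 with GANT61. Ratios of such dim probes are shrunk, so the ES2 ratio of WIPI2 says little. The other WIPI2 probe was detected on no array.

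ATG2A, a lipid transfer protein, had ratios of opposite sign in the lines, with log2 intensities of 8.0 and 7.43 in ES2 and 6.59 and 7.23 in H4. It was 1.48-fold lower with GANT61 in ES2 and 1.56-fold higher in H4, so that the GANT61 arrays of the lines lay closer together than their DMSO arrays. It is the 1 gene of the 27 measured in both lines with opposite directions and log2 ratios past 0.32 in size in each, which 2.42% of all 10229 genes measured in both lines had. Its ratios were beyond the spread between probes in each line, but each rests on 1 probe, and on the authors' scale the H4 log2 ratio was 0.39, below 1.5-fold. ATG9A, a membrane protein of the vesicles that seed autophagosomes, had log2 ratios of -0.32 in ES2 and 0.04 in H4, and another of its probes gave -0.10 and 0.16. VMP1, an endoplasmic reticulum protein of membrane supply, had nearly equal levels on the DMSO and GANT61 arrays, with ratios of -0.04 in each line.

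**Figure D2:**
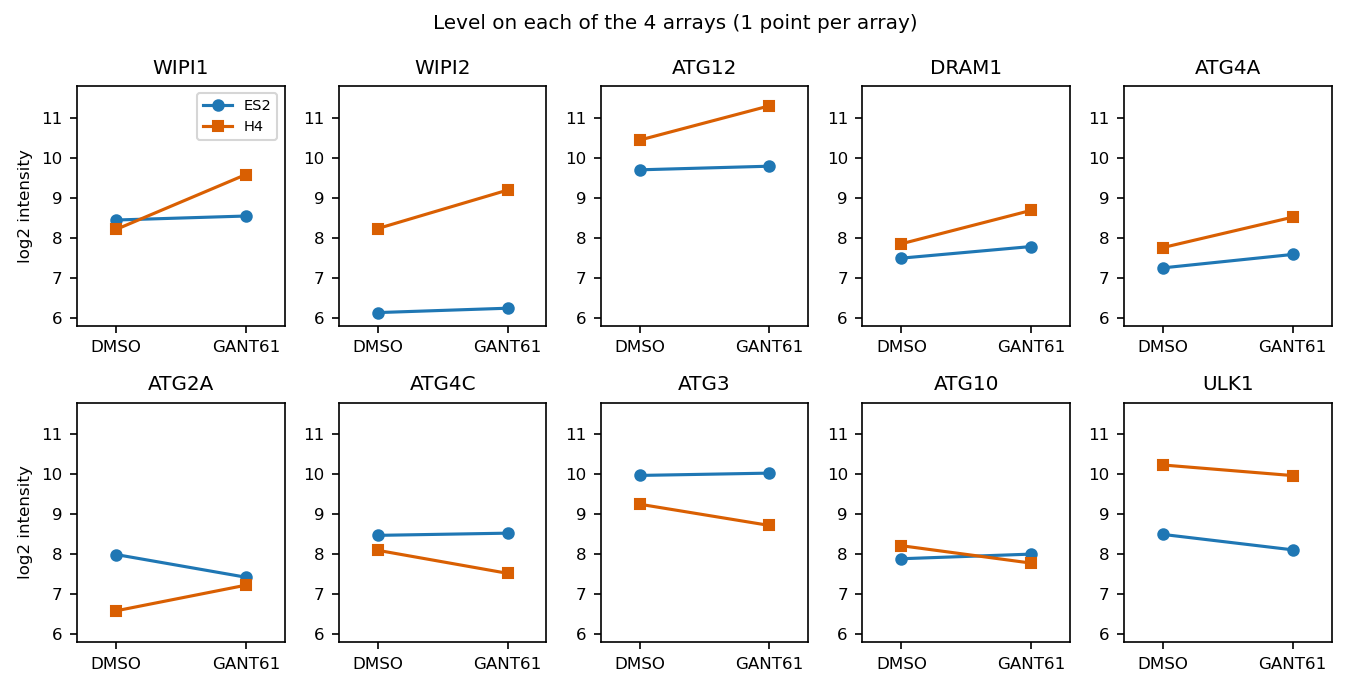
Background-corrected, quantile-normalized log2 intensity (y axis) on the DMSO and GANT61 arrays (x axis) for 10 genes, circles for ES2 and squares for H4, 1 point per array, with lines joining the arrays of a line. WIPI1 runs from 8.21 to 9.58 in H4 and from 8.45 to 8.55 in ES2, and ATG2A runs down in ES2 and up in H4.

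The conjugation genes went both ways in H4. ATG12, the ubiquitin-like protein joined to ATG5, had log2 intensities of 9.70 and 9.79 in ES2 and 10.45 and 11.30 in H4. It was 1.81-fold higher with GANT61 in H4 and 1.06-fold higher in ES2. A further probe, detected on all 4 arrays, had 0.27 as its log2 ratio in ES2 and 0.82 in H4, the latter close to that of the brighter probe.

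ATG4A, a protease that trims members of the GABARAP and LC3 family, had log2 intensities of 7.25 and 7.59 in ES2 and 7.76 and 8.52 in H4. It was 1.26-fold higher in ES2 and 1.69-fold higher in H4, and its GANT61 array was the higher one in both lines. A further ATG4A probe gave log2 ratios of 0.49 in ES2 and 0.50 in H4, which is 1.41-fold in H4 and so below 1.5-fold. The other ATG4 proteases did not follow it. ATG4B had log2 ratios of -0.09 in ES2 and 0.10 in H4, and ATG4D -0.05 and 0.11. ATG4C had log2 intensities of 8.48 and 8.53 in ES2 and 8.10 and 7.53 in H4, and was 1.49-fold lower in H4, just short of 1.5-fold.

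ATG3 and ATG10, the enzymes that hand over LC3 and ATG12 in the respective reactions, were both lower in H4. ATG3 had log2 intensities of 9.98 and 10.03 in ES2 and 9.26 and 8.73 in H4, a ratio of 0.06 in ES2 and a 1.44-fold lower level in H4. ATG10 had 7.89 and 8.01 in ES2 and 8.22 and 7.78 in H4, where it was 1.35-fold lower. ATG4C, ATG3 and ATG10 were singled out after their values were seen. They were the measured conjugation genes that were lower in H4 by more than the spread between probes, and none of them reached that spread in ES2.

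ATG7, the activating enzyme of both reactions, had log2 ratios of -0.23 in ES2 and 0.14 in H4. ATG16L1, which places the conjugation on the membrane, had ratios of 0.07 and 0.23, and 0.30 from another probe in H4. ATG5, the partner of ATG12, was 1.16-fold higher in ES2 and was not measured in H4, with detection on neither array.

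Among the genes of fusion and regulation, DRAM1, a lysosomal membrane protein, had log2 intensities of 7.50 and 7.79 in ES2 and 7.85 and 8.69 in H4. It was 1.22-fold higher with GANT61 in ES2 and 1.78-fold higher in H4, beyond the spread between probes in both lines, but it too rests on 1 probe. STX17, the SNARE of the closed autophagosome, was lower in both lines, with log2 ratios of -0.34 in ES2 and -0.27 in H4. It was detected on 1 ES2 array, where its bound was at least 1.17-fold lower. TP53INP2, which promotes LC3 lipidation, had ratios of 0.14 and 0.08. EPG5, a tethering factor of fusion, had a ratio of 0.03 in ES2, which was -0.13 with the mean of its detected probes, and left no fold to give in H4, where 1 array detected it.

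Several probes of a gene could be compared for few of the 33. In H4, 5 genes had 2 or more probes detected on both arrays (ULK1, ATG16L1, ATG12, ATG9A and ATG4A), and within each gene all such probes lay on the same side of 0. In ES2 this held for 4 of 6, the exceptions being ATG10 and ATG16L1, with probes of small ratio on both sides of 0.

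The lines were compared gene by gene over the 27 genes measured in both. The ratios had the same sign in 15 (55.6%, against 47.2% of 10229 genes), 10 of them higher and 5 lower in both lines. The H4 ratio was the larger in size for 22 (81.5%, against 75.9%). The genes differing most between the lines were WIPI1, whose H4 log2 ratio exceeded its ES2 ratio by 1.27, ATG2A (by 1.21), WIPI2 (by 0.85) and ATG12 (by 0.77). With 1 array per group these differences between the lines were not tested, and the ES2 ratio of WIPI2 comes from signal near background.

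**Figure D3:**
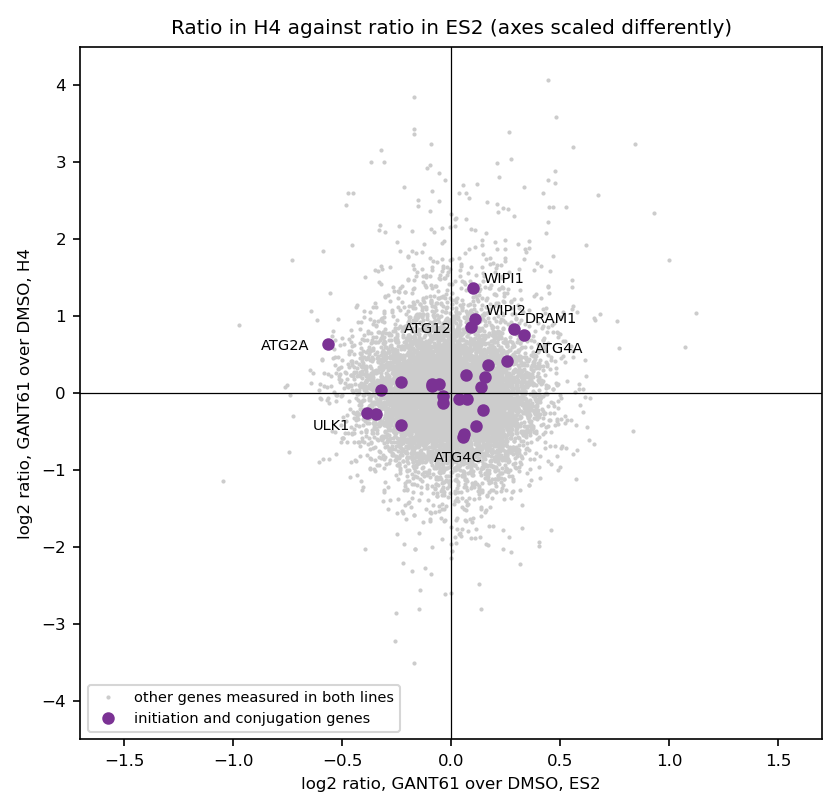
Log2 ratio of GANT61 over DMSO in H4 (y axis) against that in ES2 (x axis) for genes measured in both lines, with the 27 initiation and conjugation genes as large points and other genes as small grey points. The H4 axis spans a wider range than the ES2 axis, and ATG2A lies at the upper left, apart from WIPI1, WIPI2, ATG12, DRAM1 and ATG4A in the upper right.

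The single test the design allows takes the lines as replicates of the treatment. It was fitted to all 10229 genes measured in both lines with limma, cell line as a block and 1 residual degree of freedom per gene. Of these, 0.215% (22 genes) passed an adjusted p under 0.05 and 6.12% an unadjusted p under 0.05. None of the 27 genes passed the adjusted threshold in limma, and 3 passed the unadjusted one, all higher. WIPI1 had a shared log2 ratio of 0.74 ± 0.30 (SE, limma, adjusted p = 0.562). Its log2 ratios were 0.10 in ES2, within the spread between probes, and 1.37 in H4. DRAM1 had 0.56 ± 0.27 (limma, adjusted p = 0.788) and ATG4A 0.55 ± 0.26 (limma, adjusted p = 0.792). These 3 genes were each higher in 2 of 2 lines. WIPI2 followed with 0.53 ± 0.27 (limma, adjusted p = 0.839) and ATG12 with 0.47 ± 0.27 (limma, adjusted p = 0.968). ULK1 had -0.32 ± 0.28, and its adjusted p from limma rounded to 1.00. The SE was 0.26 for VMP1, with log2 ratios of -0.04 in each line, against 0.30 for WIPI1, whose ratios differed far more. The variance behind each SE and p-value is thus drawn largely from a trend over all 10229 genes. It is therefore not the gene's own spread between the 2 lines. With 1 array per group, differences between cultures cannot be told apart in it from differences between the lines.

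Levels of some genes also differed between the lines on the DMSO and GANT61 arrays. WIPI2 was 4.29-fold higher in H4 than in ES2 on the DMSO arrays and 7.75-fold higher on the GANT61 arrays, and ULK1 3.33-fold and 3.62-fold higher. These were the 2 of 27 genes (7.41%) at least 2-fold apart in the same direction on both pairs of arrays, against 9.87% of all genes. ATG2A was 2.65-fold higher in ES2 with DMSO and 1.15-fold higher with GANT61. SH3GLB1 was 2.04-fold higher in ES2 with DMSO and 1.76-fold with GANT61. The authors normalized each line separately, so levels across lines rest on the quantile normalization added here. The ES2 levels of WIPI2 also lay near the lowest detected signals of that line.

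Other autophagy genes were described with the same rule. Of all genes measured in H4, 45.4% were above 0, 11.3% at least 1.5-fold higher and 12.6% lower. In ES2 these shares were 50.6%, 0.36% and 0.319%. Of the ATG8 family, whose members are attached to the autophagosome membrane, 4 of 4 measured genes were above 0 in H4 with a median log2 ratio of 0.50, 2 of them at least 1.5-fold higher: MAP1LC3B (2.47-fold) and MAP1LC3A (1.81-fold). GABARAPL1 had 0.14 and GABARAPL2 0.13. In ES2, 6 of 6 were above 0 with a median of 0.21 and none at 1.5-fold. Of 12 measured cargo receptors, 8 were above 0 in H4 with a median of 0.55, 5 at least 1.5-fold higher and 0 lower. They included TOLLIP (2.48-fold), the mitophagy receptor BNIP3 (2.36-fold), OPTN (1.80-fold) and the reticulum receptor RETREG1, detected on 1 array and at least 2.34-fold higher. In ES2 their median was 0.08.

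Genes around initiation were mostly above 0 in H4. Of the nutrient and energy kinases and partners, 17 were measured there, 12 above 0 and 5 below, with a median of 0.23. Past 1.5-fold, 2 of the 17 were higher and 2 lower, where 11.3% and 12.6% of all genes were. The AMPK subunits PRKAG2 and PRKAG1 were 3.06-fold higher and 1.71-fold lower, SESN1 was 1.64-fold higher, and SESN3, was detected on 1 array, where its bound was 1.08-fold lower. The median of the kinases was -0.08 in ES2, where 0.319% of all genes were at least 1.5-fold lower. There 1 of 18, DDIT4, an inhibitor of mTORC1, was 1.52-fold lower (named after its value was seen). Of 6 other initiation genes measured in H4, 5 were above 0 (83.3% against 45.4% of all genes) with a median of 0.39 and none at 1.5-fold. Among the 5 were WDR45B (log2 ratio 0.58, just under 1.5-fold), WDR45 (1.47-fold), TMEM41B (1.31-fold) and TP53INP1 (1.31-fold). In ES2, 4 of 10 measured genes of this list were above 0 and 6 below, with a median of -0.10.

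Of 9 genes of fusion with lysosomes measured in H4, 7 were above 0 (77.8% against 45.4% of all genes) with a median of 0.12. Of the 9, 3 were at least 1.5-fold higher (33.3% against 11.3%): PLEKHM1 (1.91-fold), the GTPase RAB7A (1.78-fold) and VPS18, detected on 1 array and past 1.5-fold at its bound too. SNAP29, the partner of STX17, was 1.34-fold higher. Their ES2 median was -0.03. Of 10 transcription factors of autophagy genes measured in H4, 6 were above 0 (60% against 45.4% of all genes) with a median of 0.17. Past 1.5-fold, 0 of the 10 were higher, against 11.3% of all genes, and 3 (30%) lower, against 12.6%. Among the 3 were FOXO1 (1.89-fold) and FOXO4 (1.58-fold), while HIF1A was 1.46-fold lower. TFEB was detected on no array. In ES2 the median of this list was -0.09.

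**Figure D4:**
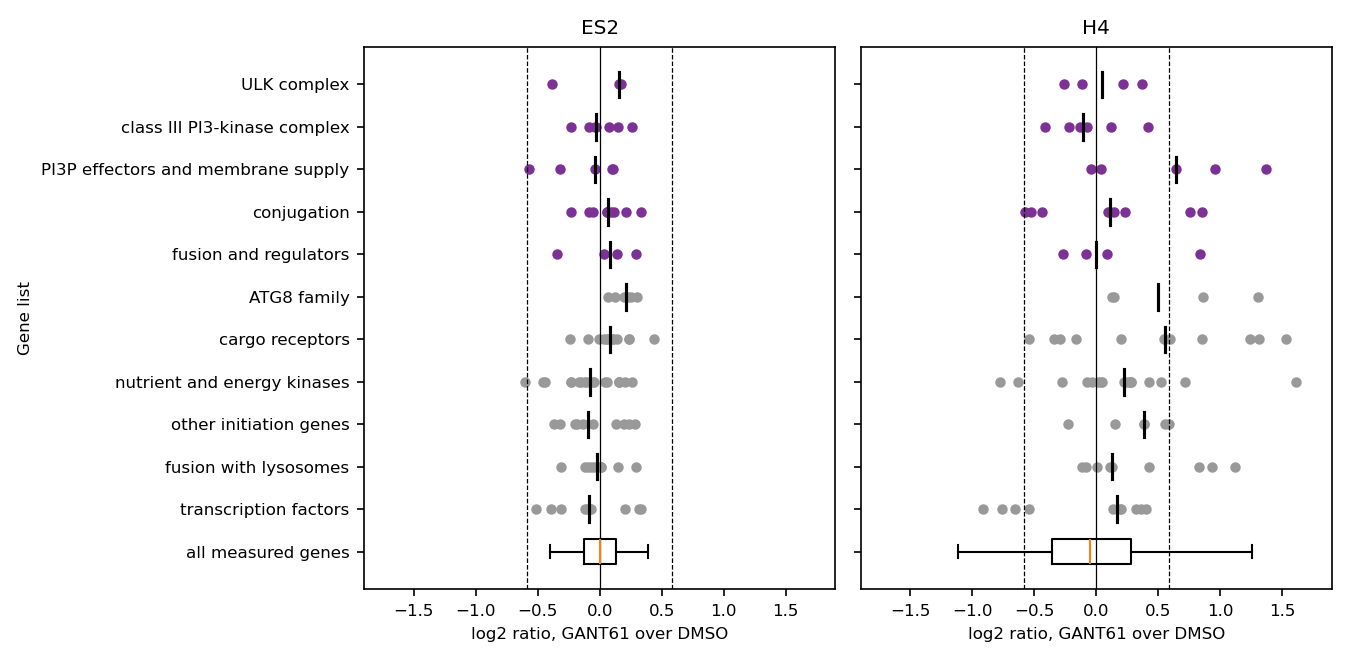
Log2 ratio of GANT61 over DMSO (x axis) in ES2 (left) and H4 (right) for the 33 genes by role (dark points) and for other autophagy gene lists (grey points), with 1 point per measured gene, a thick bar at each list's median and dashed lines at 1.5-fold. The box for all measured genes shows quartiles and median with whiskers around the central 95% of genes. The widest shifts of a list's median in H4 are at PI3P effectors and membrane supply (0.64, 5 genes), cargo receptors (0.55, 12 genes) and the ATG8 family (0.50, 4 genes). The first of these medians is the value of ATG2A, which depends on the processing.

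H4 differed from ES2 in ways that move with these counts. At p under 0.01, 27.3% and 30.6% of probes were detected on the H4 arrays against 32.6% and 33.4% on the ES2 arrays. In H4, 8 of 10 mesenchymal markers were measured and 5 were at least 2-fold lower, against 3.53% of all genes (4 past 1.5-fold when bounds replace ratios). Of the 8, 6 were below 0 and 2 above it, CDH2 (log2 ratio 0.24) and THY1 (0.16). The summed intensity over 9 mesenchymal genes was 13600 with DMSO and 10380 with GANT61 in H4, and 15339 and 14772 in ES2. Most of the H4 fall in this sum came from LUM, with log2 intensities of 11.87 and 10.26 there. The 4 detected epithelial markers summed to 398 and 416 in H4 and 1099 and 1131 in ES2, and the 6 detected glial and neural markers to 4036 and 4317 in H4 and 2654 and 2414 in ES2. Within these lists, OLIG2 was 3.13-fold, KRT18 1.71-fold and NCAM1 1.64-fold higher with GANT61 in H4, and MUC1 was 1.64-fold and SLC1A3 1.42-fold lower. The part of these shifts in the ratios above was not tested. Of the Hedgehog readouts, PTCH1 was detected on no array and GLI1 on 1 H4 array with no fold to give, and GLI2, GLI3 and HHIP, measured in ES2, had log2 ratios of -0.35, -0.19 and -0.24 there. GLI3 was also measured on both H4 arrays, with a log2 ratio of -0.04.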

How the data were processed

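RNA of 2 cell lines given DMSO or 20 µM GANT61 for 48 h was hybridized to 1 Illumina BeadChip each, per the labels' protocols, and samples were grouped by title. The authors' deposited table holds 1 linear intensity per probe and array, and its values show a quantile normalization within each line (the sorted values of the ES2 arrays differed by a median of 0.00457% and of the H4 arrays by 0.0103%) with no background subtraction. Software is not given in the sources used here. Another deposited table gives a detection p-value per probe and array, per the file headers, and the array's gene names. Its 4 signal columns name no treatment and were not used, and its detection p-values were used only as the number of a line's arrays that detected a probe.

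The intensity was corrected with normexp (saddle-point, offset 16), then quantile normalization was run across the 4 arrays in R 4.3.3 with limma 3.58.1, and log2 was taken. The offset shrinks the ratios of dim probes, and a shift common to all genes is lost in the quantile step. Probe names were updated through RefSeq's GRCh38.p14 gene table (27035 current symbols, 4626 synonyms, 3485 gene numbers, 8758 kept, 3270 without a name, 55 calendar dates). For genes with detection on 1 array a bound is given too, which raises the dimmer value to the lowest signal among genes detected on both arrays of that line and assumes that detection belongs to the brighter value. Within a line there is no test. The shared response used lmFit and eBayes with a trend and Benjamini-Hochberg adjustment over all genes. The number of arrays limits the precision. Members, gene lists and rules were chosen with earlier results of these data known. The rule gave full values for genes past 1.5-fold in either line, for opposite directions past a log2 ratio of 0.32 in both, and for ULK1 and BECN1. For other lists it named up to 4 genes by size of the H4 ratio. One gene of these lists is not reported here.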

Additional observations from a re-analysis of the deposited data

Results flagged for a closer look

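ATG2A had a log2 ratio of 0.64 in H4 and of -0.57 in ES2, opposite directions on the single array pair of each line and beyond the spread between probes in each. The difference was not tested. Opposite directions beyond that spread were seen in 1 of 27 initiation and conjugation genes (3.70%) and in 7.71% of all genes measured in both lines.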

How the results depend on the processing

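The shared fit pairs the DMSO and GANT61 arrays of each line through its block, and the labels give no replicate numbers that could pair arrays further. The number of H4 genes at least 1.5-fold higher was 6, and 5 under median scaling, on the authors' scale, at offset 50 and without background correction, where ATG2A was below the limit. ES2 had 1 gene at least 1.5-fold lower with median scaling (ATG2A, log2 ratio -0.61) and 0 otherwise. None of the 33 genes passed limma's adjusted threshold under the alternatives run, where their lowest adjusted p was 0.462 with the mean of detected probes. Calls over all genes in that fit were 22, 8 without background correction, 37 with the mean of detected probes and 0 under the other 7. The H4 median ran from 0.02 (no detection filter) to 0.11 (detected on both arrays), and the ES2 median from 0.00 (mean of detected probes) to 0.07. No single ratio moved by more than the spread between probes, but the ES2 ratios of EPG5 (0.03) and ATG10 (0.12) changed sign with the mean of detected probes, to -0.13 and -0.03. With 1 array per group, spread between cultures is unknown, and signals near background limit ULK3, PIK3R4, EPG5 and STX17, and WIPI2 in ES2.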
